A study of Mus musculus with 20 samples.

Results

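Transcript levels of 4 genes of the metzincin metalloproteinases, Mmp7, Mmp13, Mmp17 and Adam11, were followed in the prostates of 5 inbred mouse strains. The genes were chosen by the differences between strain means in the log2 ratios of these same 20 arrays, so their strain differences are given as a description with no test. They were read from every array element, that is every printed spot, whose only gene symbol in the annotation was one of the 4 names. This gave 7 elements of 11552 on the array: 2 each for Mmp7, Mmp13 and Mmp17 and 1 for Adam11. All 7 had a value on all 20 arrays and passed the limit on missing values, as did 11159 elements in all. The Adam11 element is named only through an expressed sequence tag in the annotation, and the identity of its DNA could not be checked here, so each Adam11 value is that of an element so named.

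The strains were C57BL/6J, 129X1/SvJ, FVB/NJ, BALB/c and DBA/2, all untreated and without engineered alleles in the labels, and the mice were 8 to 9 weeks old. Each strain had 4 pools, and each pool joined RNA of the dorsal, lateral, ventral and anterior lobes from 3 mice, so that 12 mice stood behind a strain. Amplified RNA of a pool was hybridized to a cDNA array in 1 dye against a common reference in the other dye, and the reference mixed RNA of all strains. Within a strain, 2 pools carried the dye Cy3 and the other 2 the dye Cy5. A value is the log2 ratio of the pool over that reference, so 0 is the level of the mixture and a difference of 1 is a doubling. C57BL/6J, 129X1/SvJ and FVB/NJ mice came from one supplier and BALB/c and DBA/2 mice from another, and strain and supplier cannot be told apart.

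Matrix metalloproteinases are zinc proteinases made as inactive proenzymes. Once activated they cleave collagens, other matrix proteins and cell surface proteins, and tissue inhibitors (TIMPs) block them. Mmp7, matrilysin, is the member made mainly by glandular epithelium, where it also processes antimicrobial peptides and cell surface ligands, and it is known from epithelium of the prostate. Mmp13, collagenase 3, cuts fibrillar collagen and is made mainly by mesenchymal cells, among them those of bone. Mmp17 is a membrane-type enzyme held by a lipid anchor. Adam11 belongs to the ADAM proteins with a disintegrin domain, lacks the catalytic zinc site and is known mainly from the nervous system.

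Mmp13 and Mmp7 lie at the ends of a cluster of matrix metalloproteinase genes on chromosome 9, whereas Mmp17 is on chromosome 5 and Adam11 on chromosome 11. The promoters of Mmp13 and Mmp7 are shown because these genes had the widest strain ranges of the 4, and DBA/2 was the highest strain of one and the lowest of the other. RefSeq held a promoter window for both genes, from which the 250 bases before the annotated start are printed, 5′ to 3′, with the build GRCm38.p6. The Mmp13 window is chr9:7272264-7272513 and the Mmp7 window chr9:7691840-7692089, both on the plus strand. Capitals mark matches to 4 motifs searched on both strands: AP-1 (TGAGTCA or TGACTCA), the TATA box (TATAAA), Runx (AACCACA) and Ets (AGGAAG).
Mmp13: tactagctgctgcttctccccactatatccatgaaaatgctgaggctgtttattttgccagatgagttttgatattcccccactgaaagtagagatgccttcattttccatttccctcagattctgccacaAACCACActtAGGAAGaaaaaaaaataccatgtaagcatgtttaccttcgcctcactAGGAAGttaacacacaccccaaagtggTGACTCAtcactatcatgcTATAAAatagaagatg
Mmp7: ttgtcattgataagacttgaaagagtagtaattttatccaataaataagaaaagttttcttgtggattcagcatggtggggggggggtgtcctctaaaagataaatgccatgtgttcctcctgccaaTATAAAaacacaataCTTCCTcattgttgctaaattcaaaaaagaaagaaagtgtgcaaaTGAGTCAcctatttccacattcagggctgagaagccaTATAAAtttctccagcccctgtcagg
Both windows held an AP-1 motif, which begins 35 bases before the start in Mmp13 and 63 bases before it in Mmp7. The TATA box begins 16 bases before the start in Mmp13, and it begins 26 and 123 bases before it in Mmp7. Of 32851 windows of this length, 4.46% held the AP-1 motif, 12.4% the TATA box and 0.721% both. The Runx motif was in the Mmp13 window and not in this Mmp7 window, against 4.4% of all windows. The Ets motif was in both, in Mmp7 on the minus strand, and in 29.5% of all windows. A match describes these letters and is no measure of binding, and a second Mmp7 start in the table held neither AP-1 nor the TATA box but a Runx and an Ets motif. The table held no window for Mmp17 or Adam11.

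The arrays had medians from -0.01 to 0.02. Their spread (median absolute deviation) was 0.292 to 0.437 on the 129X1/SvJ arrays and 0.157 to 0.291 on the others. Arrays of 1 strain correlated at a median of 0.471 with the same dye and 0.187 with opposite dyes. Ratios to a prostate mixture do not show whether a marker is present, so the labelled tissue could be checked only for differences between strains. Of 9 measured luminal markers 2 passed limma's F test over the 5 strains, Sbp and Epcam, and of 8 smooth muscle markers 0 did (0 at an unadjusted p under 0.05 as well), beside 12.5% of all named genes. The mean over 6 seminal vesicle markers was 0.57 to 1.42 in the BALB/c pools and -3.56 to -0.04 in the 16 others. In bulk tissue, fewer cells of a type and less RNA per cell cannot be told apart.

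Mmp7 was highest in 129X1/SvJ and lowest in DBA/2. In 129X1/SvJ pools 1 to 4 its first spot read 1.09, 1.32, 0.93 and 0.89, and in C57BL/6J pools 1 to 4 it read -0.11, -0.24, 0.05 and 0.13. BALB/c pools read -0.70, -0.22, 0.05 and -0.22. Every 129X1/SvJ pool was thus above every pool of these strains, whereas C57BL/6J and BALB/c overlapped around the level of the reference. FVB/NJ pools read -1.43, -0.74, -1.41 and -0.71, and DBA/2 pools -1.94, -1.43, -1.43 and -1.55. All 8 pools of FVB/NJ and DBA/2 were below the reference, and the pools of FVB/NJ lay in 2 pairs.

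The strain means of Mmp7 were 1.06 ± 0.20 in 129X1/SvJ, -0.04 ± 0.17 in C57BL/6J, -0.27 ± 0.31 in BALB/c, -1.07 ± 0.41 in FVB/NJ and -1.59 ± 0.24 in DBA/2 (SD, n = 4 each). The difference between 129X1/SvJ and DBA/2 was 2.65 (standard error 0.20), or 6.26-fold. The lowest 129X1/SvJ pool was 0.76 above the highest pool of any other strain, and 0.672% of all elements had 129X1/SvJ pools above the 16 others, from which nothing is read because the strain values chose the gene. Of the other steps in the order, C57BL/6J over BALB/c (0.23) and FVB/NJ over DBA/2 (0.52) were between strains whose pools overlapped. BALB/c and FVB/NJ were 0.80 apart in the mean, yet their nearest pools were separated by only 0.01 and overlapped on the second spot. On the linear scale 129X1/SvJ carried 44.4% of the level summed over the 5 strain means, and DBA/2 carried 7.10%. The 129X1/SvJ arrays spread more than the others, and with all arrays scaled to the same spread, the excess of 129X1/SvJ over the mean of the other 4 strains went from 1.80 to 1.52.

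**Figure D1:**
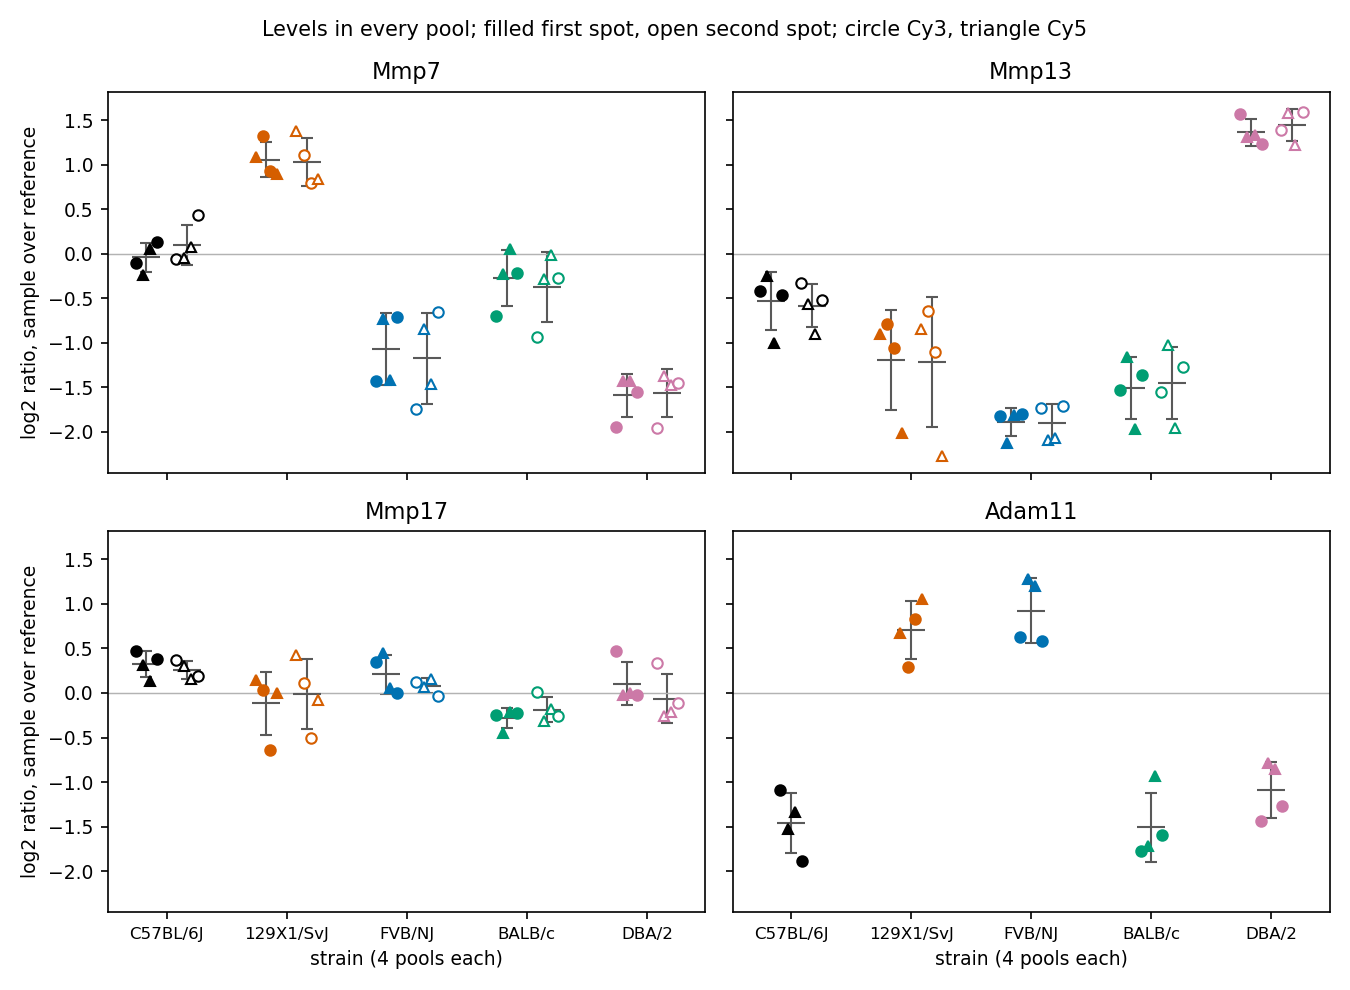
Log2 ratio of pool over reference (vertical axis) in the 4 pools of each strain (horizontal axis) for Mmp7, Mmp13, Mmp17 and Adam11; filled symbols are the first spot, open symbols the second, circles Cy3 pools and triangles Cy5 pools, and bars show mean and SD. Mmp7 stands highest in 129X1/SvJ (mean 1.06), Mmp13 in DBA/2 (1.36) and Adam11 in FVB/NJ and 129X1/SvJ (0.92 and 0.71), whereas the strain means of Mmp17 stay between -0.28 and 0.32.

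Mmp13 was high in 1 strain, DBA/2, and below the reference in all pools of the other 4. DBA/2 pools 1 to 4 read 1.57, 1.31, 1.33 and 1.23 on the first spot. C57BL/6J pools read -0.42, -0.25, -1.002 and -0.46, and 129X1/SvJ pools -0.90, -0.78, -1.06 and -2.01. DBA/2 did not overlap with either strain, and pool 4 of 129X1/SvJ stood well below the rest of its strain. BALB/c pools read -1.53, -1.16, -1.97 and -1.36, and FVB/NJ pools -1.83, -2.13, -1.81 and -1.80. The FVB/NJ pools lay close together apart from pool 2, and BALB/c pool 3 fell among them.

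The strain means of Mmp13 were 1.36 ± 0.15 in DBA/2, -0.53 ± 0.33 in C57BL/6J, -1.19 ± 0.56 in 129X1/SvJ, -1.50 ± 0.35 in BALB/c and -1.89 ± 0.16 in FVB/NJ (SD, n = 4 each). DBA/2 over FVB/NJ was 3.25 (standard error 0.24), or 9.54-fold, the widest range of the 4 genes, and 4.62, or 24.6-fold, under quantile normalization. The lowest DBA/2 pool was 1.48 above the highest of the 16 others, and 0.376% of all elements had DBA/2 pools above the 16 others. Nothing is read from that share, since the strain values chose the gene. The 4 strains below DBA/2 followed each other in steps of 0.66, 0.31 and 0.39, and the pools of neighbours overlapped at every one of these steps. DBA/2 carried 59.5% of the level summed over the strain means on the linear scale, and FVB/NJ carried 6.23%.

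Adam11 was high in FVB/NJ and 129X1/SvJ and low in the other 3 strains, with no pool in between. FVB/NJ pools 1 to 4 read 0.63, 1.28, 1.20 and 0.58, and 129X1/SvJ pools 0.67, 0.29, 0.83 and 1.05. The pools of these 2 strains overlapped and were all above the reference. DBA/2 pools read -1.44, -0.79, -0.85 and -1.27, C57BL/6J pools -1.08, -1.52, -1.34 and -1.89, and BALB/c pools -1.78, -1.72, -0.94 and -1.60. These 12 pools were all below the reference, and the 3 strains overlapped with each other.

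The strain means of Adam11 were 0.92 ± 0.37 in FVB/NJ, 0.71 ± 0.32 in 129X1/SvJ, -1.09 ± 0.32 in DBA/2, -1.46 ± 0.34 in C57BL/6J and -1.51 ± 0.39 in BALB/c (SD, n = 4 each). FVB/NJ over BALB/c was 2.43 (standard error 0.25), or 5.39-fold. The mean of the 2 high strains was 2.17 above that of the 3 low strains, or 4.49-fold, and the nearest pools across the gap were 1.08 apart. Of all elements 0.108% had the 8 pools of FVB/NJ and 129X1/SvJ above the 12 others, and nothing is read from that share for a gene chosen on its strain values. Within each set the neighbours overlapped, with steps of 0.22 between FVB/NJ and 129X1/SvJ, 0.37 between DBA/2 and C57BL/6J and 0.05 between C57BL/6J and BALB/c. FVB/NJ and 129X1/SvJ carried 40.2% and 34.6% of the level summed over the strain means on the linear scale.

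Mmp17 varied the least of the 4 genes. C57BL/6J pools 1 to 4 read 0.47, 0.31, 0.13 and 0.39, FVB/NJ pools 0.34, 0.45, 0.05 and 0.00, and DBA/2 pools 0.47, -0.03, 0.00 and -0.02. The 129X1/SvJ pools read 0.15, 0.04, -0.63 and 0.00, and BALB/c pools -0.25, -0.45, -0.21 and -0.22. All pools of C57BL/6J were above all pools of BALB/c, whereas every pair of neighbours in the strain order overlapped on this spot.

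The strain means of Mmp17 were 0.32 ± 0.14 in C57BL/6J, 0.21 ± 0.22 in FVB/NJ, 0.10 ± 0.24 in DBA/2, -0.11 ± 0.35 in 129X1/SvJ and -0.28 ± 0.11 in BALB/c (SD, n = 4 each). C57BL/6J over BALB/c was 0.61 (standard error 0.16), or 1.52-fold. The second spot gave 0.44 for the same difference and placed 129X1/SvJ above DBA/2, so the middle of this order was not kept between spots. Over all elements the median range of strain means was 0.32 and the 95th percentile 0.94, which places the range of Mmp17 above the median and below that percentile. The ranges of Mmp13, Mmp7 and Adam11 were all above it, as follows from the way they were chosen. The SD within strains was 0.23 for Mmp17, 0.28 for Mmp7, 0.34 for Mmp13 and 0.35 for Adam11, against a median of 0.22 over all elements.

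The pairs of spots give a measure of the error of a single spot. The spots of Mmp7, of Mmp13 and of Mmp17 each carried 1 accession and lay the same number of elements apart, as did 604 pairs on the array, but the annotation does not name the clones. The SD between the spots of a pair was 0.11 for Mmp7 and 0.12 for both Mmp13 and Mmp17, below the median of 0.15 over the 604 pairs. The correlation of the spots over the 20 arrays was 0.99 for Mmp7, 0.99 for Mmp13 and 0.83 for Mmp17. This correlation rises with the strain range that chose the genes and is given only as a description. The second spots gave 2.59 for Mmp7 in 129X1/SvJ over DBA/2 and 3.34 for Mmp13 in DBA/2 over FVB/NJ. The low Mmp13 value of 129X1/SvJ pool 4 was seen on the second spot too, at -2.27, and so was the low Mmp17 value of 129X1/SvJ pool 3, at -0.51. The spots furthest apart were those of Mmp17 in FVB/NJ pool 2, at 0.45 and 0.07. Adam11 had a single spot, so neither its values nor its identity could be checked in this way.

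The dye of the pool is independent of the strain values that chose the genes, since each strain had both dyes equally, and it was tested with limma. For Adam11 the pools read 0.38 higher in Cy5 than in Cy3 (standard error 0.12, 95% interval 0.13 to 0.63, adjusted p = 0.0364), and the difference had this sign in 5 of 5 strains, from 0.06 in C57BL/6J to 0.63 in FVB/NJ. Of all elements, 15.9% passed this test. The call for Adam11 was lost without C57BL/6J pool 4, 129X1/SvJ pool 2, BALB/c pools 1 or 3, or any 1 pool of FVB/NJ or DBA/2 (adjusted p between 0.0545 and 0.0759). It was also lost with the pool number as a block (0.35, adjusted p = 0.0959), with arrays scaled to the same spread (0.31, adjusted p = 0.0991), without moderation (adjusted p = 0.0574) and without a term for the strain (adjusted p = 0.650), and the sign turned under quantile normalization (-0.17, adjusted p = 0.434). For Mmp7 the difference was 0.09 (interval -0.16 to 0.34, adjusted p = 0.649), for Mmp13 -0.22 (-0.50 to 0.07, adjusted p = 0.292) and for Mmp17 -0.02 (-0.23 to 0.20, adjusted p = 0.928). Mmp13 read lower in Cy5 in all 5 strains on both spots, yet the interval held 0, and under quantile normalization its difference was -0.84 (adjusted p = 0.00676). The interaction of dye and strain passed for 0 of the 7 spots in limma (adjusted p = 1.00 for each, and 0 at an unadjusted p under 0.05), against 0.485% of all elements.

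**Figure D2:**
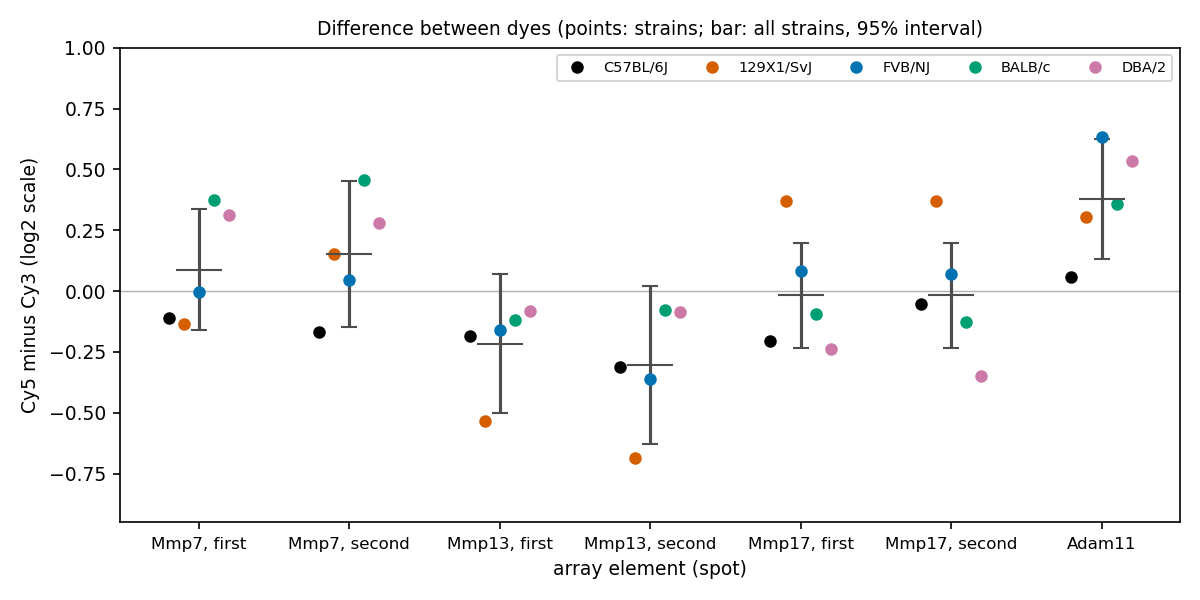
Difference between Cy5 and Cy3 pools (log2 scale) for each spot of the 4 genes; points are the 5 strains (2 pools per dye each), and horizontal bars with whiskers the estimate over all strains with its 95% interval. The Adam11 points are all above 0 with an estimate of 0.38, those of Mmp13 all below 0 on both spots, and the intervals of Mmp7, Mmp13 and Mmp17 hold 0.

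The leading differences between strains had the same direction within each dye. With Cy3 pools alone, 129X1/SvJ over DBA/2 was 2.87 for Mmp7, DBA/2 over FVB/NJ was 3.22 for Mmp13 and FVB/NJ over BALB/c was 2.29 for Adam11. With Cy5 pools alone the same differences were 2.42, 3.29 and 2.57. For Mmp17, C57BL/6J over BALB/c was 0.66 with Cy3 and 0.55 with Cy5.

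Neighbouring positions on the array were also read. The only named element within 2 positions of Adam11 was Tusc1, at 3178, which was highest in FVB/NJ (range 0.60, limma F test, adjusted p = 0.0872) and correlated with Adam11 at 0.75 over the 20 arrays. Its deviations from strain means correlated with those of Adam11 at 0.51, and at 0.04 with dye removed. The deviations of Adam11 from its strain means correlated at 0.78, 0.86 and 0.88 with those of 3 unnamed elements numbered 3175, 3176 and 3179, beside Adam11 at 3177, over 20 arrays with the same dyes and print order. Over all pairs of elements 1 position apart the median of this correlation was 0.27 and the 95th percentile 0.77, and over those 2 positions apart, as 3175 and 3179 are, 0.19 and 0.73. With dye removed the 3 values were 0.73, 0.76 and 0.80, against 95th percentiles of 0.76 at 1 position and 0.71 at 2. The strain ranges of those 3 elements were 0.39, 0.23 and 0.37, and limma's F test did not pass for them (adjusted p = 0.495, 0.891 and 0.608). None of the 4 neighbours had a strain range near the 2.43 of Adam11, which was chosen on its strain values. Pools in Cy5 read 0.33 higher than in Cy3 at 3176, 0.33 at Tusc1 and 0.30 at 3179 (adjusted p = 0.0122, 0.00632 and 0.0162). Their part in the dye difference of Adam11 was not tested.

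The neighbours of the other spots were read in the same way. The deviations of the Mmp13 spots correlated at 0.76 and 0.79 with those of the unnamed elements 3038 and 3230, 2 positions away (0.75 and 0.77 with dye removed). The Cy5 minus Cy3 differences of those elements were -0.55 and -0.62 (adjusted p = 0.0183 and 0.00795), and their strain ranges were 0.56 and 0.51 (F test, adjusted p = 0.742 and 0.812). The 95th percentiles of the correlation at 2 positions were 0.73 and, with dye removed, 0.71. The dye differences at the named neighbours of Mmp13 were -0.50 and -0.55 for Csrp3 (limma, adjusted p = 0.0491 and 0.0487). They were -0.28 and -0.51 for Chga (0.127 and 0.00348) and -0.08 and -0.24 for Nme4 (0.605 and 0.0832). The deviations of the Mmp17 spots correlated at 0.65 and 0.74 with those of the adjacent Tradd spots (0.65 and 0.80 with dye removed), whose strain ranges were 0.37 and 0.27. The 95th percentiles at 1 position were 0.77 and, with dye removed, 0.76. For Mmp7 the correlations of deviations ran from -0.34 to 0.49 over its 8 neighbours, and from -0.70 to 0.56 with dye removed. The part of the neighbours in the spread of Mmp13 and Mmp17 was not tested.

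Each gene had its own order of strains. Over the 20 arrays the correlation was -0.44 between Mmp7 and Mmp13, 0.21 between Mmp7 and Adam11, -0.47 between Mmp13 and Adam11 and 0.18 between Mmp13 and Mmp17. The remaining pairs, Mmp7 with Mmp17 and Mmp17 with Adam11, gave -0.27 and 0.02. The points are the same 20 arrays with 1 common reference, in 5 strains. The deviations from strain means correlated between -0.11 and 0.16 in all pairs but Mmp13 with Adam11, at -0.58.

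**Figure D3:**
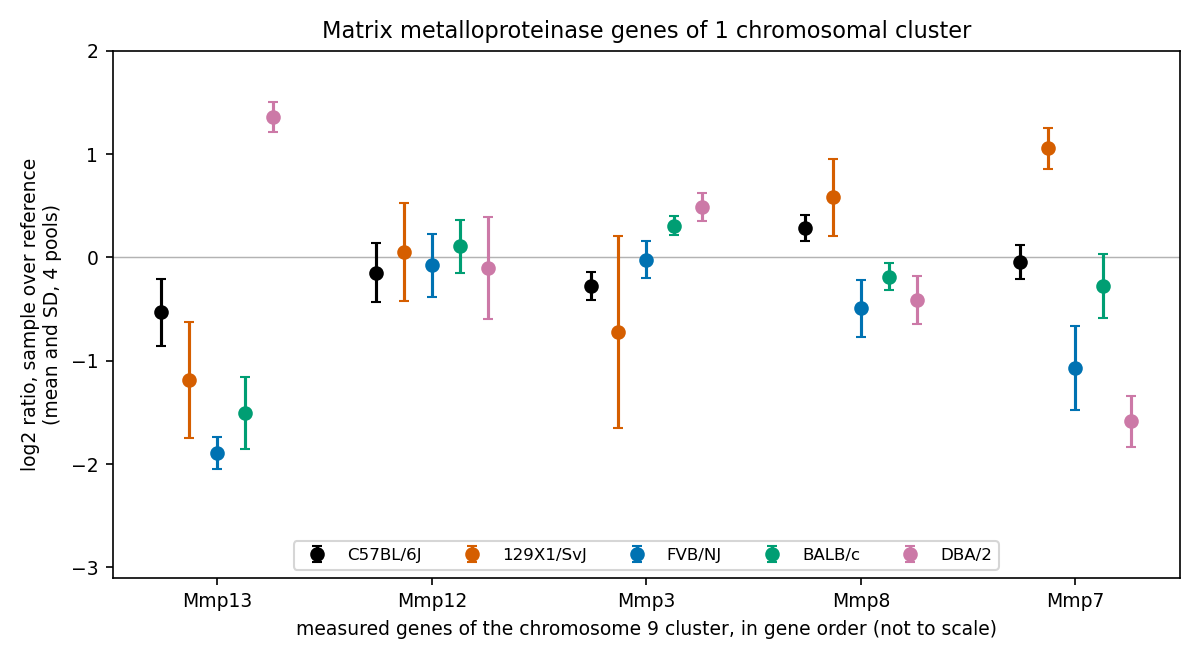
Strain means and SD over 4 pools of the log2 ratio (vertical axis) for the 5 measured matrix metalloproteinase genes of the chromosome 9 cluster, in gene order (horizontal axis, distances not to scale). Mmp13 at one end is highest in DBA/2 (1.36), Mmp7 and Mmp8 at the other end are highest in 129X1/SvJ (1.06 and 0.58), and the Mmp12 means lie between -0.15 and 0.11.

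Within the chromosome 9 cluster the order of the measured genes is Mmp13, Mmp12, Mmp3, Mmp8 and Mmp7. Mmp8, the neutrophil collagenase and the measured gene next to Mmp7 in the cluster, differed between strains (limma F test, adjusted p = 4.84e-04) and was highest in 129X1/SvJ (0.58 ± 0.37, SD, n = 4) and lowest in FVB/NJ (-0.49 ± 0.27). Its correlation with Mmp7 was 0.83 over the 20 arrays and 0.24 for the deviations from strain means. Mmp3, stromelysin 1, was highest in DBA/2 (0.49 ± 0.14), as Mmp13 was, and lowest in 129X1/SvJ (-0.72 ± 0.92, adjusted p = 0.0389), whose pools ran from -1.84 to 0.42. Its correlation was 0.33 with Mmp13 and -0.60 with Mmp7. Mmp12, the macrophage elastase and the direct neighbour of Mmp13, ranged over 0.25 and did not pass the test (adjusted p = 0.935). On the other side of Mmp13 the nearest measured genes were Pdgfd, a platelet-derived growth factor, which was highest in C57BL/6J and lowest in 129X1/SvJ (range 0.69, adjusted p = 0.0140), and Casp12, an inflammatory caspase, which did not pass (range 0.72, adjusted p = 0.533). Beyond Mmp7, the nearest measured genes Tmem123 and Birc2 ranged over 0.21 and 0.17 and did not pass (adjusted p = 0.893 and 0.945).

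The nearest measured genes on each side of Mmp17 and Adam11 did not pass the F test. Those of Mmp17 were Sfswap, Fzd10, Zfp11 and Psph, with ranges of strain means from 0.07 to 0.42. Sfswap is directly beside Mmp17, and 2, 6 and 18 genes lie between Mmp17 and Zfp11, Psph and Fzd10. Those of Adam11 were Gpatch8, Itga2b, Kif18b and Dcakd, with ranges from 0.14 to 0.77. Between Adam11 and each of them lie 9 to 13 genes, so the genes directly beside Adam11 were not measured. The ranges of Adam11 (2.43) and Mmp17 (0.61, and 0.44 on its second spot) were above those of the 4 measured genes around each. Nothing is read from this, since the strain values chose the members.

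The named genes whose ratios were most like each member over the 20 arrays were taken from 5658 genes, as a description. For Adam11 they were Mgst1, a microsomal glutathione transferase (r = 0.98), Pik3c2g, a lipid kinase (0.97), and Il18, an interleukin (0.91). The strain means of Mgst1 were 1.08 in FVB/NJ, 0.85 in 129X1/SvJ, -1.60 in DBA/2, -2.11 in C57BL/6J and -2.18 in BALB/c, the order of Adam11. Mgst1 and Pik3c2g are both on chromosome 6, and the deviations of Adam11 from its strain means correlated at 0.68 and 0.55 with theirs, and at 0.02 with those of Il18. Whether the element named Adam11 measures Adam11 alone was not tested. The gene most opposed to Adam11 was Ces1e, a carboxylesterase, at -0.94.

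For Mmp7 the most similar genes were Car5b, a mitochondrial carbonic anhydrase (0.95), Atcayos (0.89) and Gsto1, a glutathione transferase (0.85), and the most opposed was Mpzl2 (-0.92). Car5b kept the 129X1/SvJ pools on top, with a strain mean of 0.53, and had -0.63 in DBA/2. For Mmp13 they were Stard4, a carrier of cholesterol (0.89), Litaf (0.86) and Eln, the gene of elastin (0.85), and the most opposed was Psmb6, a proteasome subunit (-0.88). Stard4 had a strain mean of 0.91 in DBA/2 and -0.46 to -0.17 in the other 4. For Mmp17 the highest values were lower, with Wdfy3 (0.82), Mbtd1 (0.72) and Rnpc3 (0.70), and the most opposed was Psmc5 (-0.77). All these correlations share arrays, dyes and reference.

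**Figure D4:**
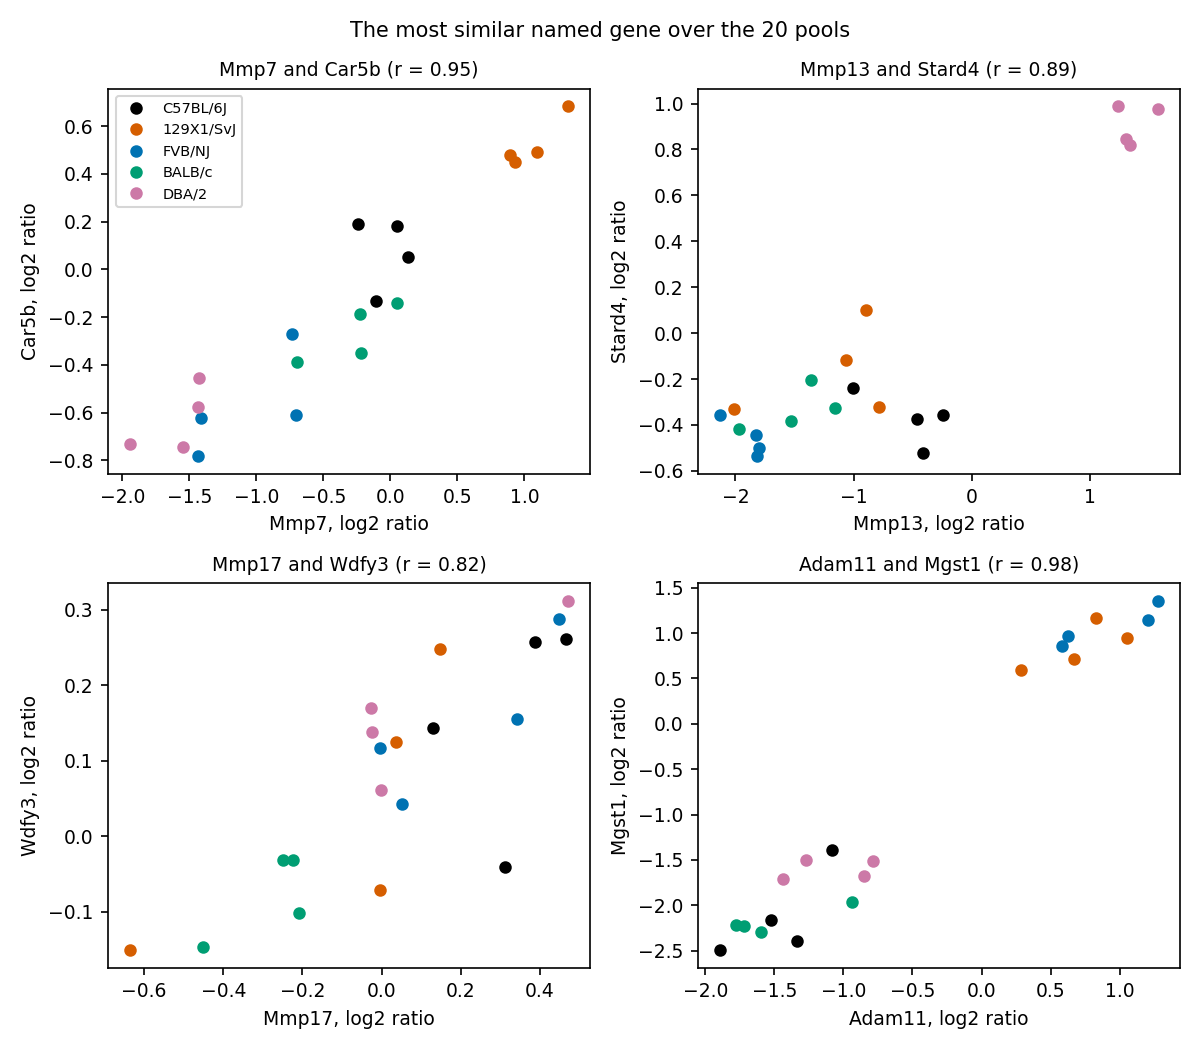
Log2 ratio of each of the 4 genes (horizontal axes) against that of the most similar named gene (vertical axes) in the 20 pools, coloured by strain. Adam11 and Mgst1 (r = 0.98) form 2 separate groups of 8 and 12 pools, Mmp13 and Stard4 (0.89) set the 4 DBA/2 pools apart, Mmp7 and Car5b (0.95) spread along a line, and Mmp17 and Wdfy3 (0.82) mix the strains.

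Genes around the 4 members were read from 7 lists of the pathway, of which 85 genes were measured. With limma's F test over the 5 strains, called at adjusted p values up to 0.1, 16 of them passed (18.8%), against 12.5% of all named genes, and the median strain range was 0.41 against 0.32 over all elements. Among the other matrix metalloproteinases 5 of 10 passed: Mmp3 and Mmp8 above, Mmp9, a gelatinase that was lowest in C57BL/6J (-0.35), and the membrane-type Mmp16 and Mmp24. Mmp24 was highest in 129X1/SvJ (0.42, adjusted p = 0.00873), the leading strain of Mmp7, whereas for Mmp16 only 1 of 3 elements passed. Mmp9 missed the threshold without C57BL/6J pool 2 (adjusted p = 0.123), and Mmp16 without BALB/c pools 3 or 4 or DBA/2 pools 3 or 4 (adjusted p between 0.109 and 0.137). None of the 5 had a range above 1.21, less than that of Mmp7, Mmp13 or Adam11. Nothing is read from this difference, since the strain values chose the members. Of the ADAM proteins other than Adam11 only the sheddases Adam10 and Adam17 were measured, and 0 of 2 passed (0 at an unadjusted p under 0.05 as well). Of 7 ADAMTS proteins and astacins Adamts1 passed (adjusted p = 0.0693) and was highest in FVB/NJ, but the call was lost without FVB/NJ pools 2, 3 or 4, BALB/c pools 1, 2 or 4 or DBA/2 pools 2 or 3 (adjusted p between 0.107 and 0.246).

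Inhibitors of the metalloproteinases, among them Timp1, Timp2, Timp3 and Timp4, passed in 0 of 7 cases in limma. This stands beside 12.5% of all named genes, and 0 of the 7 had an unadjusted p under 0.05. The SD within strains was 0.77 for Timp1 and 0.84 for Timp2, against a median of 0.22 over all elements. With this spread the test does not show that Timp1 and Timp2 were level across strains. Without 129X1/SvJ pool 4, Spock1 passed (adjusted p = 0.0216). The range of Timp2, 0.54 on its representing element, ran from 0.53 to 0.81 over its 4 elements, on which the F test did not pass either. Of 9 genes of proenzyme activators or of the plasminogen system, 4 passed. Plau, urokinase, was 1.34 higher in BALB/c than in C57BL/6J (adjusted p = 0.00260), and Hpn, hepsin, was highest in 129X1/SvJ (0.49). Tmprss2, a serine proteinase of the epithelium, was highest in C57BL/6J (0.29), and Cma1, a mast cell chymase, in DBA/2 (0.39). Only 1 of 2 elements passed for Hpn, and the same was so for Tmprss2. Hpn lost its call when its elements were averaged (F test, adjusted p = 0.215).

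Among 28 substrates of the matrix and cell surface 5 passed (17.9%, against 12.5% of all named genes): Col6a3, Eln, Col1a1, Fbln2 and Tnc. Col6a3, a chain of type VI collagen, was highest in DBA/2 (0.74) and lowest in FVB/NJ (-1.11, adjusted p = 2.12e-06), and Eln had the same highest and lowest strains (0.53 and -0.45, adjusted p = 0.00218). DBA/2 and FVB/NJ were also the highest and lowest strains of Mmp13. In BALB/c, however, Col6a3 was above the reference (0.49) and Mmp13 below it (-1.50). Eln was already named above among the genes most like Mmp13. The other 3 did not have this pair: Col1a1 was highest in DBA/2 and lowest in 129X1/SvJ, Fbln2 highest in FVB/NJ (0.25) and lowest in 129X1/SvJ, and Tnc highest in 129X1/SvJ and lowest in DBA/2 (-0.30). Col1a1 (adjusted p = 0.0946) kept its call only without C57BL/6J pool 2, 129X1/SvJ pools 2 or 4, FVB/NJ pool 1 or DBA/2 pool 2, and the 15 other fits that left out 1 pool gave up to 0.226. Fbln2 lost its call without 129X1/SvJ pools 3 or 4 or FVB/NJ pools 1 or 4 (adjusted p between 0.118 and 0.146). Tnc lost it without 129X1/SvJ pool 3, BALB/c pools 2 or 4 or DBA/2 pools 1, 3 or 4 (adjusted p up to 0.156). Only 1 of 2 elements of Tnc passed. Of 22 regulators of metalloproteinase transcription only Il1b passed on its representing element (4.55%, against 12.5% of all named genes). Il1b had a range of 0.40 (F test, adjusted p = 0.0199). Of genes counted as not passing, 1 of 4 elements of Esr1 and 1 of 2 of Tcf7l2 passed, and so did 2 of 4 of Cdh1 and 1 of 3 of Col3a1 among the substrates. The AP-1 subunits measured in this list, Fos, Fosl1, Fosl2, Jun, Junb and Jund, did not pass. Jund ranged over 1.30 with an SD within strains of 0.91, and Fos over 0.66 with an SD of 0.44. The median SD over all elements was 0.22, so the test does not show that these 2 were level across strains.

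**Figure D5:**
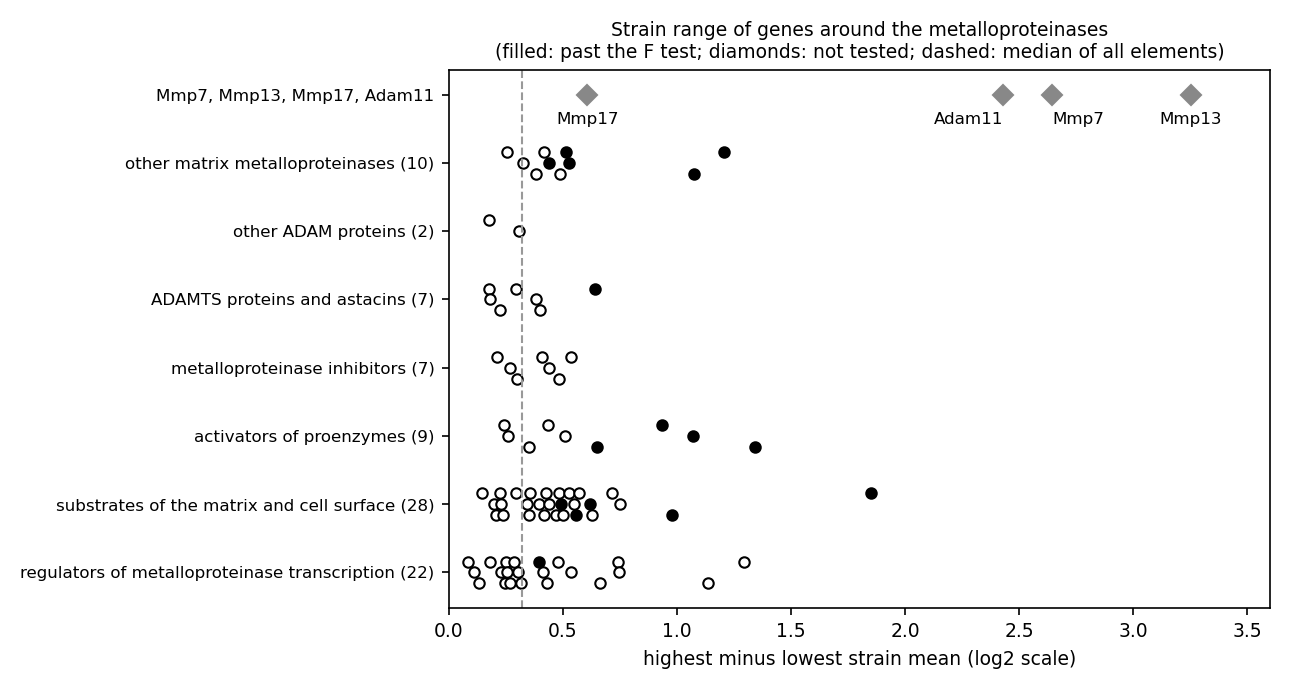
Highest minus lowest strain mean (log2 scale, horizontal axis) for the 4 members (diamonds, not tested) and for the measured genes of 7 lists around them, with the number of genes in parentheses; filled circles passed the F test (adjusted p up to 0.1) and the dashed line is the median of all elements, 0.32. Mmp13, Mmp7 and Adam11 lie from 2.43 to 3.25, beyond every gene of the lists, of which Col6a3 reaches 1.85. Mmp17 lies at 0.61 among them. The members were chosen on their strain values, so nothing is read from their place beside the lists.

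The values of other cell types that move with the strains stand beside these results. Of 6 seminal vesicle markers 3 passed the F test, Svs2, Svs5 and Pate4. They were highest in BALB/c, the strain in which Mmp17 and Adam11 were lowest. Svs4 was also highest in BALB/c but did not pass. Svs1 was highest in C57BL/6J (0.39, against 0.02 in BALB/c) and Svs6 in 129X1/SvJ (-0.01, against -0.13 in BALB/c), and neither passed. Epcam, an epithelial marker, was highest in 129X1/SvJ and lowest in C57BL/6J, and Sbp, a secretory product, the reverse. Mmp7 was highest in 129X1/SvJ and second in C57BL/6J. Of the other lists, 1 of 8 markers of fibroblasts and matrix passed, 1 of 3 of macrophages and leukocytes, 2 of 4 of adipose tissue and 1 of 7 of skeletal muscle, again beside 12.5% of all named genes. None passed in limma among 4 of endothelium, 2 of basal epithelium and 3 of neurons and nerve, where 2, 1 and 0 had an unadjusted p under 0.05. The mean over the skeletal muscle list was 0.16 in DBA/2, the strain in which Mmp13 was highest, and -0.21 to -0.06 in the other strains. The pools overlapped, at 0.04 to 0.49 in DBA/2, up to 0.31 in BALB/c and up to 0.30 in C57BL/6J. The muscle marker that passed, Acta1, was highest in DBA/2 (0.62), and so were Tnnt3, Tnni2, Mylpf and Mb, which did not pass. Ckm was highest in 129X1/SvJ and Atp2a1 in BALB/c. The smooth muscle mean was also highest in DBA/2 (0.12). The mean of fibroblasts and matrix was highest in C57BL/6J (0.13, against 0.08 in DBA/2). Pools of different strains overlapped in both lists. The part of these cell types in the levels of the 4 genes was not tested.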

How the data were processed

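Prostate RNA of 20 pools, 4 from each of 5 strains, was measured on cDNA arrays of 2 colours against a common reference. The authors subtracted local background, normalized each array by print-tip loess and deposited log2 ratios of sample over reference. Spot intensities were not used here, so signal over background is unknown. Precision is limited by how many arrays there are. Groups, pool numbers and dyes came from the labels. Symbols came from the array annotation (8050 elements with 1 symbol, 672 with several, 2830 not listed), and 7880 elements matched a gene table of GRCm38.p6, used for names and gene order. Promoter sequences came from RefSeq.

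An element was tested if no more than 3 of its 20 values were missing and every strain had 2 or more (393 were left out). limma 3.58.1 in R 4.3.3 gave a moderated F test over the strains (adjusted p of at most 0.1), each strain against the mean of the other 4, the dye difference with strain as a covariate, and the interaction of dye and strain (adjusted p under 0.05), all with Benjamini-Hochberg adjustment over all elements. The tests were also run on simulated data with independent noise for each element, unlike the correlated neighbouring elements of these arrays. A gene was represented by its element with the fewest missing values, then the lowest number. Named were all members, the 3 most similar and the most opposed gene of each, the 2 nearest measured genes on each side, and up to 5 genes a list past the F test. Members and lists were chosen with earlier results of these data known. Alternatives were other centring, scaling and quantile normalization, 1 dye alone, a dye term, the pool number as a block, averaged elements, medians, other filters, other estimates of the spread, SAM (1137 of 10729 complete elements at a q-value of at most 0.1) and leaving out each pool. Figures were drawn with matplotlib 3.10.9.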

Additional observations from a re-analysis of the deposited data

Results flagged for a closer look

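In 35 groups of 4 pools (5 strains by 7 spots) the pool farthest from the others was compared with the range of its group, and 3 pools lay apart by more than Dixon's critical value for 4 samples. Chance alone flags about 1 group in 20. For Mmp13, the first spot of FVB/NJ pool 2 read -2.13 against -1.83 to -1.80 in the other 3 pools, a gap of 0.919 of the range. For Mmp17, the first spot of BALB/c pool 2 read -0.45 against -0.25 to -0.21 (0.830), and the first spot of DBA/2 pool 1 read 0.47 against -0.03 to 0.00 (0.952). The second spots of the same pools read -2.09, -0.32 and 0.34, and none of these groups passed the critical value there.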

How the results depend on the processing

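Without any 1 pool, the difference between the highest and the lowest strain was 2.53 to 2.70 for Mmp7, 3.17 to 3.30 for Mmp13, 0.55 to 0.67 for Mmp17 and 2.31 to 2.62 for Adam11. Under the same fits 129X1/SvJ minus the mean of the other 4 strains was 1.71 to 1.86 for Mmp7, DBA/2 minus the others 2.57 to 2.68 for Mmp13, BALB/c minus the others -0.46 to -0.36 for Mmp17 and FVB/NJ minus the others 1.64 to 1.87 for Adam11. None of these values turned its direction under any alternative. Scaling the arrays to the same spread moved the Mmp7 value from 1.80 to 1.52. Quantile normalization moved Mmp13 from 3.25 to 4.62 and from 2.64 to 3.51, and Adam11 from 2.43 to 2.96 and from 1.76 to 2.20, and the cause was not tested. The dye difference of Adam11 was 0.32 to 0.46 without any 1 pool (adjusted p between 0.00639 and 0.0759). It passed no longer with arrays scaled to the same spread (0.31, adjusted p = 0.0991), without moderation (0.38, adjusted p = 0.0574) or without a term for the strain (0.38, adjusted p = 0.650), and it reversed under quantile normalization (-0.17, adjusted p = 0.434), where the dye difference of Mmp13 passed (-0.84, adjusted p = 0.00676). With the pool number as a replicate block the dye difference of Adam11 was 0.35 (adjusted p = 0.0959), and no other call changed. The labels do not say that a number marks a shared batch, so the numbers were not taken to pair the samples. Of 40 pairs of pools with the same number in different strains, 22 correlated above 0.1 in their deviations (from -0.339 to 0.435). Closest to their own number were 11 of 20 pools. In all strains but 129X1/SvJ the number also fixes the dye, and 129X1/SvJ pools carried the opposite dye. Neither count can therefore decide whether a number marks a batch. The number of list genes past the F test was 12 to 18 without any 1 pool and 14 to 21 under the other settings, against 16. When elements of a gene were averaged, Mmp16 (adjusted p = 0.511), Hpn (0.215) and Tnc (0.150) did not pass. Without the 129X1/SvJ arrays, an alternative chosen after seeing the data like the second spots, Mmp24 (0.923), Fbln2 (0.432), Tnc (0.168) and Col1a1 (0.106) did not pass.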
